A study of Mus musculus with 6 samples.

Results

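Complement is a cascade of plasma and tissue proteins that tags targets for uptake, calls in leukocytes and can perforate membranes. In the classical pathway C1q, a hexamer of trimers built from the chains C1QA, C1QB and C1QC, binds a target, its attached proteases C1r and C1s cut C4 and C2, and the resulting convertase cuts C3. The fragments C3a and C5a act on the receptors C3aR1 and C5aR1. In most tissues the C1q chains come mainly from macrophages, whereas C1r, C1s, C4 and C3 are also made by fibroblasts, mesothelial cells and other stromal cells, in addition to the liver, which supplies plasma.

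The 9 complement genes C1qa, C1qb, C1qc, C1ra, C1s1, C4b, C3, C3ar1 and C5ar1 were read by symbol in a table of 54093 genes, where each symbol stood on 1 row. They fall into the 3 C1q chains, 4 components here called the stromal set (C1ra, C1s1, C4b and C3) and 2 anaphylatoxin receptors. Which cells made the transcripts was not tested. The libraries were made from total RNA of right atria (RAs) of wild-type C57BL/6 mice, male or female, on postnatal day 21, with 3 sham-operated libraries (sham 1 to sham 3) and 3 libraries of volume overload (VO 1 to VO 3). Volume overload had been created at P7 by a needle puncture between the abdominal aorta and the inferior vena cava, and the sham mice were operated on without it. The question was how the overloaded atrium differs in transcripts from the sham atrium, and whole tissue was read, so that more cells of a type and more RNA per cell cannot be told apart. The labels do not say whether animals were pooled, so the spread between libraries may in part be technical.

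Each library held 15963082 to 17237903 fragments on genes. Values are FPKM, fragments scaled to gene length and to a library size, and can be compared between genes because they are per length. The library size in the deposited values was not the fragment total. It was 15557402 against 16494342 fragments in sham 1 and 18144117 against 16852482 in VO 1. All 9 genes passed the filter of a mean of at least 1 FPKM over the 6 libraries, with 966 fragments in all for C5ar1, the fewest, and 27628 for C3, the most. The libraries were not alike in their other cells. The summed level of 12 macrophage markers was 103.0 to 113.4 FPKM in the sham libraries, 247.3 in VO 1, 115.8 in VO 2 and 134.2 in VO 3. A list of 8 monocyte and neutrophil markers summed to 6.52 to 19.2 FPKM in sham and to 86.2 in VO 1, against 11.4 and 12.7 in VO 2 and VO 3. The 6 adipocyte markers summed to 382.5 FPKM in VO 3, with Ucp1 of brown fat at 253.6, and to at most 1.06 in every other library; Ucp1 was listed at 0 in the other five. Ddx3y, a gene of the Y chromosome, was read at 27.3 FPKM in sham 2 and 28.3 in VO 3 and at no more than 0.0106 elsewhere. Because of these differences, values are given below with and without VO 1, VO 3 or both Y-bearing libraries where a result turns on them.

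Coordinates are those of GRCm38. C1qa (ENSMUSG00000036887, chromosome 4, 136895917 to 136898803), C1qc (ENSMUSG00000036896, 136889804 to 136893065) and C1qb (ENSMUSG00000036905, 136880129 to 136886187) stand side by side on the minus strand within 18.7 kb. C1ra (ENSMUSG00000055172, chromosome 6, 124512405 to 124523443) and C1s1 (ENSMUSG00000038521, 124530345 to 124542359) are neighbours on opposite strands, and C3ar1 (ENSMUSG00000040552, 122847138 to 122856161) is on the same chromosome. C4b (ENSMUSG00000073418, 34728380 to 34743882) and C3 (ENSMUSG00000024164, 57203970 to 57228136) are on chromosome 17, and C5ar1 (ENSMUSG00000049130, 16246743 to 16259540) is on chromosome 7. All 9 are protein-coding. C4b, C1ra and C1s1 have a near copy in the table that could share reads: C4a, the copy of C4b, had 35 fragments over the 6 libraries against 12252 for C4b, and C1rb and C1s2, the copies of C1ra and C1s1, had 8 fragments each. How reads fitting both copies were counted is not given in the sources used here. The antisense gene Gm16567, which overlaps C1s1, was listed at 0 in all 6 libraries.

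RefSeq start-site windows (GRCm38.p6, 250 bases before to 50 after the start) were at hand for 7 of the 9 genes, in 8 windows, since C1s1 had 2. They are shown for the neighbouring macrophage genes C1qb and C1qc, whose levels moved together across the libraries, and for C3, whose level varied most. The windows are chr4:136886151-136886450 for C1qb, chr4:136892865-136893164 for C1qc and chr17:57228087-57228386 for C3, all on the minus strand and written 5′ to 3′. Capitals mark GAGGAA or its reverse complement, the core of sites for the myeloid factor PU.1, and TTGCNNAA or its reverse complement, a core of sites for C/EBP factors.
C1qb: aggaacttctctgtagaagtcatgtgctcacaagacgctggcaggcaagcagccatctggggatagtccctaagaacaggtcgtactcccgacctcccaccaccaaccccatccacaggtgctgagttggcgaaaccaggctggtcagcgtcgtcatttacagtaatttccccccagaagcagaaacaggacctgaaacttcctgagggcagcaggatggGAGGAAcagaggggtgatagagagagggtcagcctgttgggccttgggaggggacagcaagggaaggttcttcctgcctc
C1qc: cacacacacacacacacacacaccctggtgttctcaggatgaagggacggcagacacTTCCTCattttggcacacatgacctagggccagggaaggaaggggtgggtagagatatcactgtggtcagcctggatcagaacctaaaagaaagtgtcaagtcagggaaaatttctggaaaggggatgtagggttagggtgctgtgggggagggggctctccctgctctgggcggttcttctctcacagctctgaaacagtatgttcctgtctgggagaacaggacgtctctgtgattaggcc
C3: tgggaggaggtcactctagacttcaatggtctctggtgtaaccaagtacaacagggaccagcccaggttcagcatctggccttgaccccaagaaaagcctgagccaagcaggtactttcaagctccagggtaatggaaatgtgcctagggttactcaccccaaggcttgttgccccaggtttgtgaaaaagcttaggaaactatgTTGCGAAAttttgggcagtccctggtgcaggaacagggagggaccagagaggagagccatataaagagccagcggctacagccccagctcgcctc
GAGGAA stood once in the windows of C1qb, C1qc and C1ra, and was found on either strand in 28.3% of all 32851 windows of the same length. TTGCNNAA stood once in the window of C3, once in that of C1ra and in 1 of both windows of C1s1, against 10.8% of all windows. The STAT core TTCNNNGAA, stood in the window of C1ra alone among the 8 (8.30% of all windows), and the core of the interferon-stimulated response element (ISRE) stood in none of the 8 (3.44% of all windows). These are matches of letters and were not tested as sites.

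In VO the 9 complement genes were each read above sham on average, and each was highest in VO 1, but none passed the adjusted test. Their log2 fold changes ran from 0.19 for C1ra to 1.54 for C3, with a median of 0.60, where the median of all 12627 tested genes was -0.01. One of the 9, C4b, had an unadjusted p-value under 0.05 and was higher in VO, where 3.89% of all tested genes were called in that way. C4b and C3ar1, 2 of the 9, had every VO library above every sham library, where 8.25% of tested genes did. Over all tested genes, 491 were higher and 1020 lower at an unadjusted p-value under 0.05, a split that became 1085 and 486 when FPKM was replaced by TPM. No complement gene passed an adjusted p of 0.05, with limma or with voom, where 0.00792% of tested genes did. The count at an unadjusted p-value under 0.05 was 1 with both tools. It was 0 without sham 1, where 2.23% of tested genes were higher at that threshold. Without VO 1 it was 2 (C4b and C3ar1), against 2.51% of tested genes, and without VO 2 it was 5 (C1s1, C4b, C3, C3ar1 and C5ar1), against 6.21%. An exact permutation of 3 libraries against 3 cannot go below 0.1. The maximum of all 9 genes lay in VO 1, whereas VO 1 held the maximum of 25.4% of all tested genes.

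**Figure D1:**
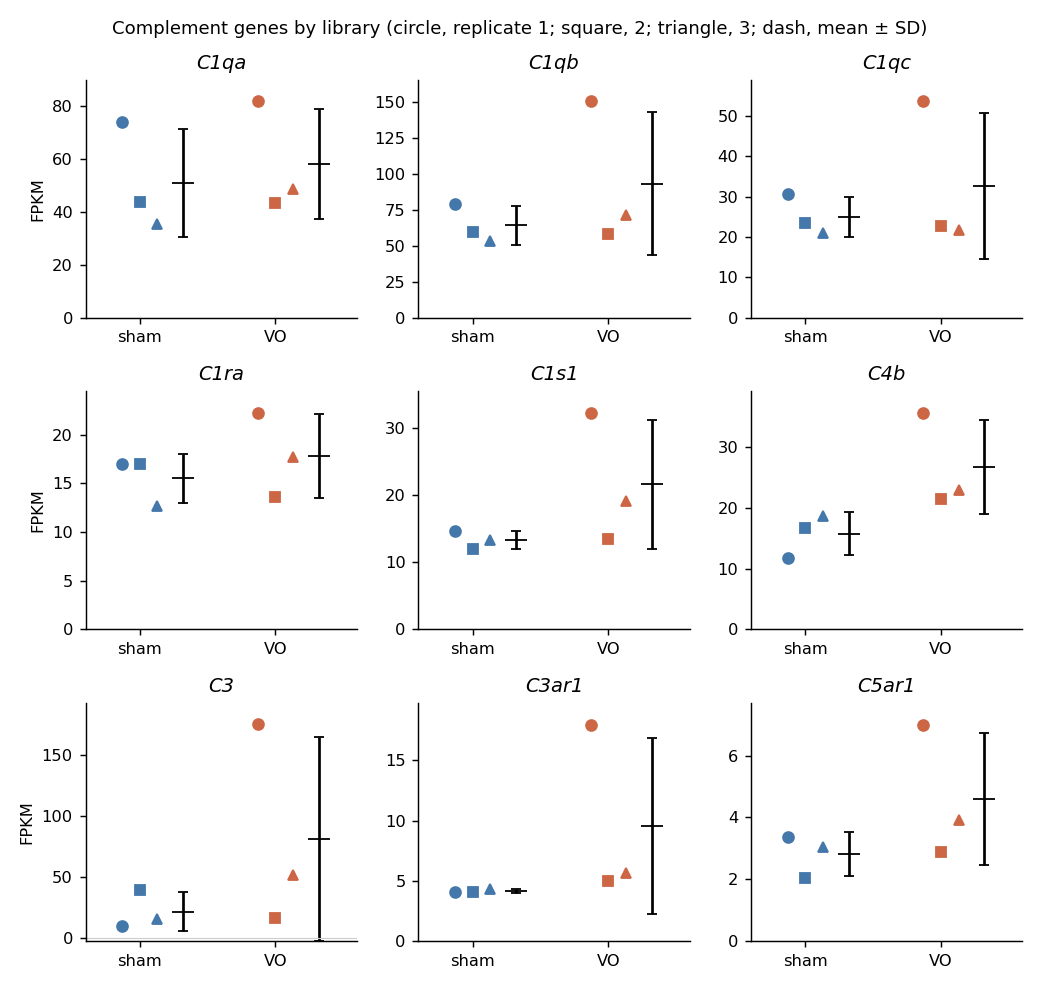
FPKM (vertical axis of each panel) of the 9 complement genes in the 3 sham (blue) and 3 VO (orange) libraries, with the mean ± SD of each group as a dash with bars. VO 1 (orange circle) is the highest library in all 9 panels, and only in C4b and C3ar1 do all orange points lie above all blue points.

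Of the C1q chains, which form the recognition head of the classical pathway, C1qa was read at 74.2, 43.6 and 35.3 FPKM in sham 1 to sham 3 and at 81.9, 43.5 and 48.7 FPKM in VO 1 to VO 3. C1qb was at 79.3, 60.0 and 53.5 FPKM in sham and at 150.7, 58.1 and 71.5 in VO. C1qc was at 30.6, 23.5 and 20.9 FPKM in sham and at 53.6, 22.7 and 21.8 in VO. In all 3 chains VO 1 was the highest library, sham 1 came next, and VO 2 and VO 3 lay within the sham range, so the groups overlapped. The mean of C1qa was 51.1 ± 20.5 FPKM in sham and 58.0 ± 20.8 in VO (SD, n = 3 libraries each), a difference smaller than the spread within either group. C1qb had 64.3 ± 13.4 and 93.4 ± 50.002 FPKM, and C1qc 25.0 ± 5.02 and 32.7 ± 18.1 (SD, n = 3 each). The log2 fold changes were 0.20 (standard error 0.33) for C1qa, 0.43 (0.35) for C1qb and 0.27 (0.35) for C1qc, with adjusted p of 0.783, 0.577 and 0.722 from limma. Without VO 1 they were -0.08, 0.02 and -0.15. VO 1 alone stood at 1.60 times the sham mean for C1qa, 2.34 times for C1qb and 2.14 times for C1qc.

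The chains kept unequal shares per length. C1qc was read at 0.305 to 0.391 of the level of C1qb in the 6 libraries, lowest in VO 3. C1qa was at 0.543 of C1qb in VO 1, at 0.936 in sham 1 and at 0.660 to 0.749 in the other four. C1qa thus varied against its neighbours more than C1qc did, with the extremes in the 2 libraries that had the most C1q.

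The stromal components were read at lower levels than C1qa and C1qb, apart from C3 in single libraries. C1ra, one of the paired proteases of the C1 complex, was at 16.9, 17.0 and 12.6 FPKM in sham and at 22.2, 13.6 and 17.7 in VO, with overlap between groups and the smallest spread of the 9 genes (1.76-fold between the lowest and the highest library). Its log2 difference was 0.19 ± 0.21 (SE, limma, adjusted p = 0.679), and 0.01 without VO 1. C1s1, the second protease, was at 14.6, 12.03 and 13.3 FPKM in sham and at 32.2, 13.5 and 19.1 in VO. Here VO 1 and VO 3 lay above all sham libraries and VO 2 between them. The log2 difference of C1s1 was 0.60 ± 0.29 (SE, limma, adjusted p = 0.431), and 0.27 without VO 1. Both proteases are needed in equal number in a C1 complex, and the level of C1s1 was 0.709 to 1.05 times that of C1ra in sham and 1.45, 0.990 and 1.08 times in VO 1, VO 2 and VO 3.

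C4b, which encodes the C4 that C1s cuts, was the gene with the smallest p-value of the 9. It was read at 11.8, 16.8 and 18.7 FPKM in sham 1 to sham 3 and at 35.6, 21.5 and 23.0 FPKM in VO 1 to VO 3. All VO libraries were above all sham libraries, with a gap of 18.7 to 21.5 FPKM between the groups. The means were 15.7 ± 3.54 FPKM in sham and 26.7 ± 7.75 in VO (SD, n = 3 each), a log2 difference of 0.75 ± 0.24 (SE, limma, unadjusted p = 0.018, adjusted p = 0.404). Without VO 1 the groups still did not overlap and the difference was 0.52 (limma, unadjusted p = 0.040). Without sham 1, the lowest library, it was 0.56 (limma, unadjusted p = 0.056).

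C3, the central protein on which all pathways converge, varied most. It was read at 9.94, 39.4 and 15.2 FPKM in sham and at 175.1, 16.5 and 51.4 FPKM in VO, so that VO 2 lay among the sham libraries and the groups overlapped. The lowest and the highest of the 6 libraries differed 17.6-fold, against 1.76-fold to 4.46-fold for the other 8 genes. The means were 21.5 ± 15.7 FPKM in sham and 81.0 ± 83.3 in VO (SD, n = 3 each). The log2 difference was 1.54 ± 0.86 (SE, limma, adjusted p = 0.465), 0.68 without VO 1 and 2.38 without VO 2. It was 2.10 without sham 2 and 2.12 without sham 2 and VO 3 together. The groups no longer overlapped without VO 2, without sham 2, or without sham 2 and VO 3. In the libraries without Ddx3y, C3 was at 9.94 and 15.2 FPKM in sham and at 175.1 and 16.5 in VO; in those with it, sham 2 was at 39.4 and VO 3 at 51.4.

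The receptors were the least abundant of the 9 genes. C3ar1, the receptor of C3a on myeloid cells, was at 4.03, 4.03 and 4.32 FPKM in sham and at 18.0, 4.99 and 5.66 in VO. The sham libraries were close together and all VO libraries lay above them, VO 2 and VO 3 by little. The means were 4.13 ± 0.169 FPKM in sham and 9.54 ± 7.31 in VO (SD, n = 3 each), a log2 difference of 0.94 ± 0.45 (SE, limma, unadjusted p = 0.074, adjusted p = 0.425). Without VO 1 it was 0.36 (SE 0.12, limma, unadjusted p = 0.023, adjusted p = 0.643). C5ar1, the receptor of C5a, was at 3.38, 2.03 and 3.06 FPKM in sham and at 7.01, 2.89 and 3.90 in VO, with VO 2 within the sham range. It rested on 90 to 327 fragments per library, and its log2 difference was 0.62 ± 0.34 (SE, limma, adjusted p = 0.456), or 0.27 without VO 1.

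**Figure D2:**
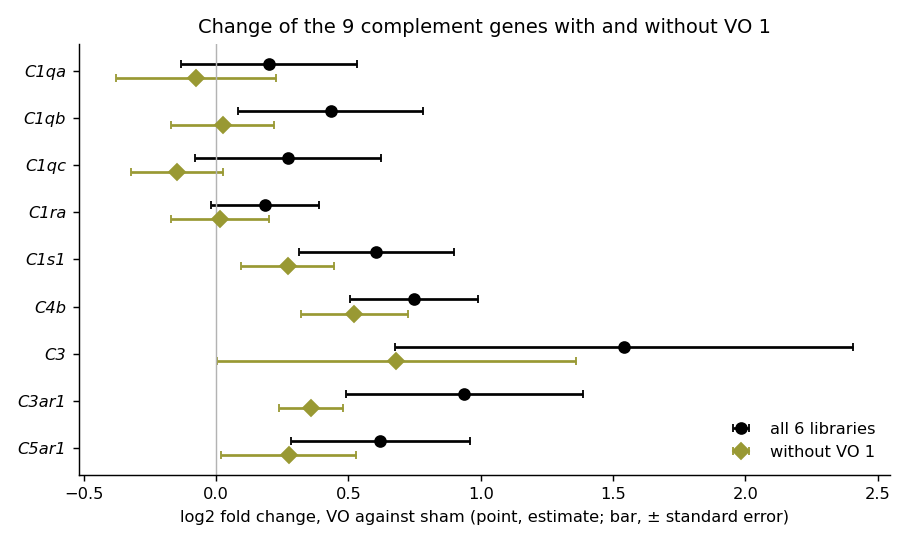
Log2 fold change of VO against sham (horizontal axis, points with ± 1 standard error from limma) for the 9 genes, in all 6 libraries (black) and without VO 1 (olive). All black points lie above 0, while without VO 1 C1qa and C1qc are below 0, C1qb and C1ra are near 0, and the other 5 genes lie between 0.27 and 0.68.

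By group, the median log2 fold change was 0.27 for the C1q chains, 0.68 for the stromal set and 0.78 for the receptors with all libraries, and -0.08, 0.40 and 0.32 without VO 1. The difference between these groups was not tested. Without VO 3, the library with adipocyte markers, the medians were 0.50, 0.74 and 0.94.

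The C1q chains were next set against the macrophages that are known to make them. All 12 macrophage markers were tested, and 11 had a log2 fold change above 0. Of these, 2 (Cd68 and Cx3cr1) had an unadjusted p-value under 0.05 by limma, where 3.89% of all tested genes were higher at that threshold. In 4 markers every VO library was above every sham library, where 8.25% of tested genes were. Adgre1, which encodes F4/80, was at 10.5, 9.76 and 10.4 FPKM in sham and at 62.1, 11.6 and 14.6 in VO. Csf1r, the receptor of the macrophage growth factor, was at 18.3, 23.1 and 21.7 FPKM in sham and at 61.2, 24.2 and 25.0 in VO. VO 1 was the highest library for 10 of the 12 markers. The exceptions were Cd163, at 6.52 FPKM in VO 1 and 6.07 to 9.04 elsewhere, and Lyve1, at 14.3 FPKM in VO 1 and 26.7 to 37.6 elsewhere. Lyve1 also marks lymphatic endothelium.

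Relative to the 12 markers, the mean log2 level of the C1q chains was 2.74 ± 0.34 in sham and 2.44 ± 0.14 in VO (SD, n = 3 each). The values were 3.12, 2.64 and 2.47 in sham and 2.56, 2.48 and 2.29 in VO, with overlap. The excess of C1q in VO 1, 1.04 log2 units over the sham mean, therefore became -0.19 once macrophage markers were subtracted, and the highest relative value was that of sham 1. Against Adgre1 alone C1q in VO 1 was 1.55 log2 units below the sham mean, and C1qb was read at 2.43 times the level of Adgre1 there, against 4.90 to 7.55 times in the other libraries. Against Cd163, in contrast, C1qb was at 23.1 times in VO 1 and at 7.91 to 12.7 times in the other libraries. The receptor genes relative to the same 12 markers were at -0.87 ± 0.21 in sham and -0.69 ± 0.26 in VO (SD, n = 3 each), with overlap.

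The stromal set was compared with fibroblast markers in the same way. Of 10 tested fibroblast markers, 3 (Col1a2, Col3a1 and Mfap5) were higher at an unadjusted p-value under 0.05 by limma and 0 were lower. Over all tested genes 3.89% were higher in that way. Pdgfra differed little, at 15.7 ± 1.78 FPKM in sham and 15.5 ± 0.607 in VO (SD, n = 3 each). The list moved by 0.39 log2 units in VO 1, 0.06 in VO 2 and 0.33 in VO 3 from the sham mean. After subtraction of this list, the stromal set was at -1.87 ± 0.30 in sham and -1.36 ± 0.61 in VO (log2, SD, n = 3 each), with overlap. The difference of 0.51 was 0.78 against Pdgfra alone, 0.26 against Col1a1 alone and 0.18 without VO 1. Without C3, which had the widest spread, the sham libraries came together: C1ra, C1s1 and C4b relative to fibroblast markers were at -2.01, -1.89 and -1.93 in sham and at -1.34, -1.89 and -1.84 in VO. VO 1 was thus 0.61 log2 units above the sham mean, and VO 2 lay within the sham range. Before subtraction, C1ra, C1s1 and C4b stood 1.00, 0.11 and 0.43 log2 units from the sham mean in VO 1 to VO 3. The macrophage list stood at 1.23, 0.13 and 0.46 in the same libraries. The part of macrophages in these levels was not tested.

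C3 moved with mesothelial markers among the sham libraries. The 6 markers of mesothelium, the cell layer that covers the heart as epicardium, summed to 33.4, 110.6 and 52.5 FPKM in sham 1 to sham 3 and to 110.9, 40.7 and 71.6 in VO 1 to VO 3. Upk3b was at 11.9, 38.3 and 19.5 FPKM in sham, in the same order as C3, and Msln at 10.6, 32.6 and 13.4. When the mean of these markers was subtracted, a step chosen after the values had been seen, C3 was at 1.24, 1.502 and 1.12 log2 units in sham and at 3.46, 1.59 and 2.47 in VO. The spread among sham libraries shrank to an SD of 0.20, and all VO libraries were above the sham libraries, VO 2 by 0.09. VO 1 carried the most monocyte and neutrophil markers and VO 3 the adipocyte markers, both cell types that can make C3; their part in this result was not tested. Of the liver markers, Alb was at 0 to 0.576 FPKM in 5 libraries and at 4.31 in VO 1, Serpina1a was at 0 in all 6, and Apoa1 and Fgb did not pass 0.141 FPKM. Ahsg, which is also on that list, was at 34.4 to 73.9 FPKM and lowest in VO 1.

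**Figure D3:**
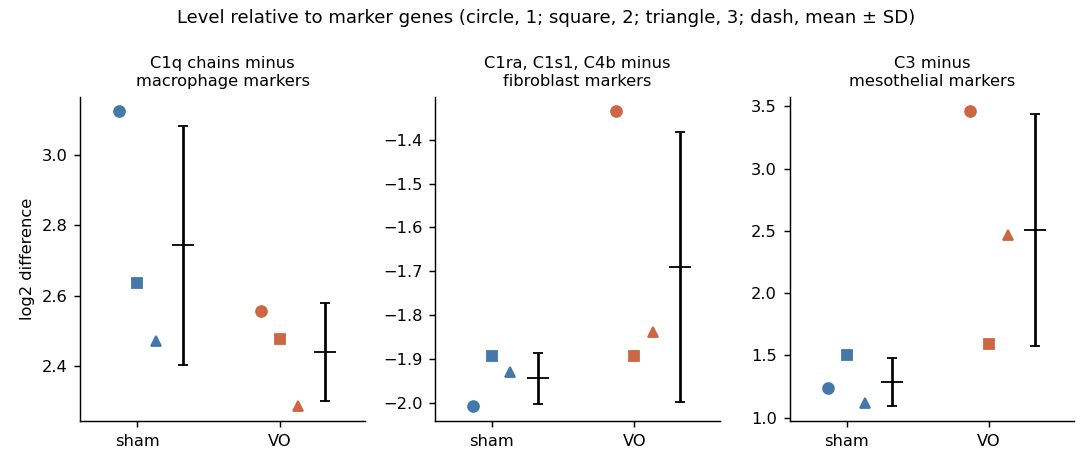
Mean log2(FPKM + 0.1) of the C1q chains minus that of 12 macrophage markers (left), of C1ra, C1s1 and C4b minus 10 fibroblast markers (middle) and of C3 minus 6 mesothelial markers (right), for each sham (blue) and VO (orange) library, with mean ± SD; each panel has its own vertical scale. On the left VO 1 lies within the range of the sham libraries, in the middle VO 1 lies 0.61 above the sham mean, and on the right all VO libraries lie above the sham libraries.

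**Figure D4:**
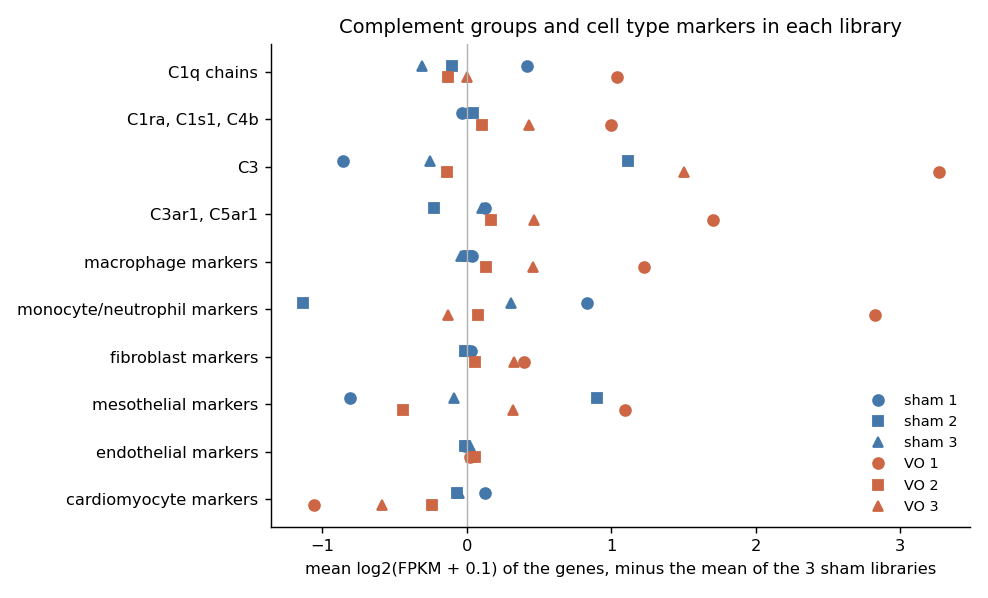
Mean log2 level of each complement group and cell type marker list in each library, as the difference from the mean of the 3 sham libraries (horizontal axis; blue, sham; orange, VO; circle, square and triangle, replicates 1 to 3). VO 1 lies farthest right in the 4 complement rows and in the macrophage, monocyte/neutrophil, fibroblast and mesothelial rows, and farthest left in the cardiomyocyte row, at -1.06.

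Markers of heart muscle cells moved the other way. Of the 6 cardiomyocyte markers, 3 were lower at an unadjusted p-value under 0.05 by limma, where 1020 of all 12627 tested genes were. The mean of the 6 stood at -1.06 log2 units from the sham mean in VO 1, -0.24 in VO 2 and -0.59 in VO 3. The order of the VO libraries was thus the reverse of that of the group means of the complement genes. The mean of 5 endothelial markers stayed within 0.06 log2 units of the sham mean in all libraries. Cdh5 was higher and Emcn lower at an unadjusted p-value under 0.05 by limma, which 12% of all tested genes reached in either direction. The part of cell shares in the complement values was not tested.

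The other complement genes were read from a list of 50, of which 21 passed the filter. By limma as by voom, 0 of these 21 passed at 0.05 before or after adjustment, against 12% of all tested genes before adjustment in limma; 15 had a log2 fold change above 0 and 6 below, with a median of 0.25. Without VO 1, 2 of the 21 were past that threshold, C8g higher and C5ar2 lower, against 7.42% of tested genes. Without VO 2, 5 were, all higher (Cd55, C2, Itgam, Itgb2 and Colec12), against 15.8%. The regulators were the most abundant. Clu, which encodes clusterin, an inhibitor of the terminal complex, was at 569.9 ± 13.6 FPKM in sham and 527.5 ± 109.5 in VO. Serping1, the inhibitor of C1r and C1s, was at 112.1 ± 2.41 and 128.7 ± 15.9 FPKM (SD, n = 3 each). Cd59a, a membrane block to pore formation, followed with 46.4 ± 6.88 and 44.1 ± 5.78 FPKM. Serping1 was read at 6.55 to 8.73 times the level of C1ra in all 6 libraries.

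The decay-accelerating factor Cd55 was the only regulator with more than 0.5 log2 units of difference, at 3.36, 5.09 and 4.06 FPKM in sham and 11.6, 4.58 and 5.66 in VO (log2 difference 0.69 ± 0.34, SE, limma, adjusted p = 0.432). Its difference rested on VO 1 too, since it was 0.30 without that library. Among the receptors of complement fragments, Vsig4, a macrophage receptor of C3b, was at 19.2 to 23.6 FPKM in sham, 63.9 in VO 1, 23.0 in VO 2 and 19.4 in VO 3. Itgb2, a chain shared by the complement receptors CR3 and CR4, was at 3.57 to 4.17 FPKM in sham, 14.1 in VO 1, 3.52 in VO 2 and 5.10 in VO 3. In both genes VO 1 was the highest library. Cd93, found mainly on endothelium, was at 34.5 ± 5.26 FPKM in sham and 41.9 ± 6.11 in VO (SD, n = 3 each), with overlap. C5ar2, the second receptor of C5a, was at 3.09 ± 0.348 FPKM in sham and 2.48 ± 0.317 in VO, a log2 difference of -0.31 ± 0.16 (SE, limma, adjusted p = 0.439), opposite in sign to C5ar1.

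Among the 17 listed genes of initiation and of the convertases, 7 passed the filter. Colec11, a soluble collectin that can start the lectin pathway, was at 14.1 ± 2.80 FPKM in sham and 14.4 ± 4.57 in VO (SD, n = 3 each), with overlap. Masp1, a protease of the lectin pathway, was at 1.00 ± 0.176 and 1.41 ± 0.630 FPKM, and Fcna, or ficolin A, at 1.072 ± 0.398 and 1.096 ± 0.433, also with overlap. Colec12, a scavenger receptor of the collectin family, was the 1 gene of the 21 tested without overlap between groups. Of all tested genes, 8.25% were higher without overlap. Colec12 was at 11.5 ± 0.831 FPKM in sham and 13.7 ± 1.58 in VO (log2 difference 0.25 ± 0.12, SE, limma, adjusted p = 0.427). Its values in sham 2 and VO 2 were separated by little. Cfp, or properdin, which stabilizes the alternative convertase, was at 15.4, 12.2 and 10.2 FPKM in sham and 29.9, 13.1 and 14.5 in VO. Cfd, the adipocyte protease factor D, was at 0.315 to 0.733 FPKM in sham, listed at 0 in VO 1 and VO 2, and at 231.1 in VO 3, the library with adipocyte markers. Cfb, the protease that factor D cuts, had 29 fragments over the 6 libraries. Of the 29 listed genes under the filter, Hc and Cr2 had all VO libraries above all sham libraries and Cd59b had them below. They rested on 11, 57 and 97 fragments in all. Among tested genes 8.25% were higher and 1633 of 12627 lower without overlap. No such share was computed for genes under the filter.

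Of the terminal pathway, Hc, C6, C8a, C8b and C9 were close to absent in transcripts. Hc, the mouse gene of C5, had 11 fragments over the 6 libraries, C6 had 13 and C8a had 2, while C8b and C9 had 0 in every library. A count of 0 allows up to 3 fragments per library, and this floor covers counting error only. C8g, a lipocalin chain, was the terminal gene that passed the filter, at 1.51 ± 0.270 FPKM in sham and 2.05 ± 0.660 in VO (SD, n = 3 each). C7 was at 0.600 ± 0.167 and 0.868 ± 0.361 FPKM. Thus the receptor C5ar1 was read in all libraries, but the transcript of its ligand's precursor was at most 0.0392 FPKM.

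**Figure D5:**
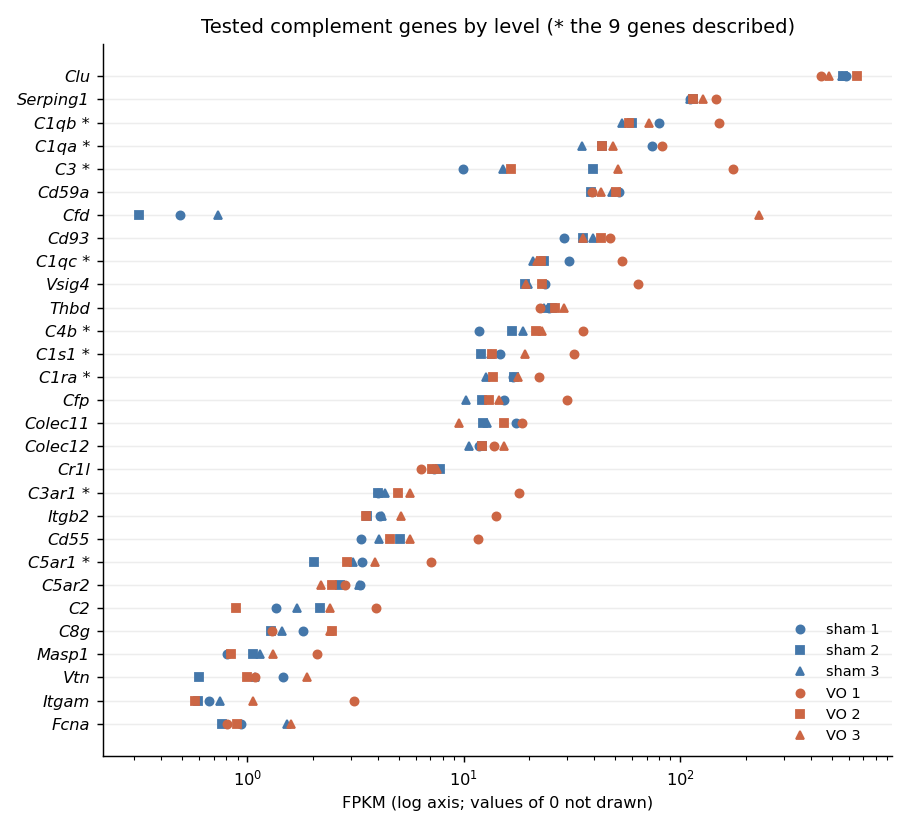
FPKM on a log axis (horizontal) of the 9 described genes (marked with an asterisk) and 20 of the other complement genes that were tested, ordered by their mean over the 6 libraries (blue, sham; orange, VO; circle, square and triangle, replicates 1 to 3). Clu and Serping1 are the highest of those drawn, C3 spans 9.94 to 175.1 FPKM, and Cfd is below 1 in sham and at 231.1 in VO 3.

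Genes whose pattern was most like these groups were sought by Pearson's r of log2 values over the 6 libraries. The search covered all tested genes outside the 9. It is a description only, since the highest r were picked from many genes over few libraries. The 5 most like the mean of the C1q chains were Zfp994, Gusb, Sh3bgrl2, Rhog and Itsn2, with r of 0.977 to 0.996. Without VO 1 their r was 0.919 to 0.999. Gusb, the lysosomal enzyme beta-glucuronidase, was at 10.6, 9.49 and 9.05 FPKM in sham and 11.3, 9.33 and 9.48 in VO, with VO 1 and sham 1 highest as for C1q but on a much narrower scale. The 5 most like the mean of C1ra, C1s1, C4b and C3 were Cmtm4, Ankfy1, Usp8, Lama2 and Ccl8, with r of 0.993 to 0.999 (0.977 to 0.999 without VO 1). Of these, the chemokine gene Ccl8 had the widest range, at 0.126, 0.454 and 0.240 FPKM in sham and 15.4, 0.360 and 1.43 in VO. Lama2, a chain of laminin in the basement membrane, was at 11.7 to 13.3 FPKM in sham and 17.6, 12.6 and 14.0 in VO. No macrophage or fibroblast marker of the lists was among these 10 genes. With only 5 genes kept per group, this cannot tell whether the marker patterns differ from the complement patterns.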

How the data were processed

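RNA-seq of right atria on postnatal day 21 was read in 3 sham and 3 VO libraries. The authors aligned reads with HISAT2 (2.0.5), counted them per gene with featureCounts (1.5.0-p3) and deposited FPKM computed from gene length and counts. The submitters' processing notes name GRCm38; 98.4% of the 54039 genes shared with GENCODE M21 had identical coordinates. An incomplete last line was left out. Multiplied by gene length, the values of a library were whole multiples (within 0.01) of a smallest unit, from which fragments were recovered. Median-of-ratios factors computed on the deposited FPKM were equal (1.00 each), so the values were already on that scale and this step changed nothing.

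Genes with a mean of at least 1 FPKM (12627) were fitted as log2(FPKM + 0.1) with limma 3.58.1 in R 4.3.3 (eBayes with trend), VO against sham, two-sided, without covariates, and p-values were adjusted by Benjamini-Hochberg over these genes. Fold changes are on that scale, which understates changes of low genes. The count test of the study's methods was not used on FPKM; alternatives were voom on the recovered fragments, other pseudocounts, filters, TPM, quantile normalization, the replicate block and leaving out libraries. The fit was tested on simulated data with independent normal noise for each gene. That test did not cover a single library in which many genes move together. The members and gene lists were chosen with earlier results of these data known. Named genes were the 9 members, other complement genes without overlap or among the 6 most abundant, the 5 most alike genes, and markers; further genes were named after their values were seen. In the counts, 1 listed gene is included but not reported here. Figures were drawn with matplotlib 3.10.9.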

Additional observations from a re-analysis of the deposited data

How the results depend on the processing

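The positive direction of all 9 complement genes was kept with a pseudocount of 1 or 0.01, TPM, quantile normalization and voom. None of the 9 passed an adjusted p of 0.05 with these settings. The same held with a mean of at least 0.1 FPKM, no filter and the replicate block. These changes of filter and the block left each log2 fold change as in the fit reported, so they could not test its direction. A pseudocount of 1 moved C1qa from 0.200 to 0.197 and C5ar1, the least abundant, from 0.62 to 0.50. The pseudocounts were therefore a weak test of direction. FPKM as deposited gave the same values as the fit reported, since the scaling factors were equal, and was not a separate check. With TPM the median difference over the tested genes moved from -0.01 to 0.13, and the medians of the C1q chains, the stromal set and the receptors were 0.41, 0.82 and 0.93. Leaving out libraries changed more. The log2 fold change of C1qa was -0.076 without VO 1, -0.029 without sham 3 and up to 0.506 without sham 1, and that of C1qc ran from -0.149 without VO 1 to 0.498 without VO 3. The median of the C1q chains ran from -0.076 without VO 1 to 0.506 without sham 1.

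Of the 9 genes, those reaching an unadjusted p-value under 0.05 by limma, all of them higher in VO, numbered 1 in the fit reported and 2 with TPM. With a library left out the number ran from 0 (without sham 1) to 5 (without VO 2), and without VO 1 it was 2. The share of all tested genes that were higher moved as well. It was 3.89% in the fit reported, 8.59% with TPM, 2.23% without sham 1, 6.21% without VO 2 and 2.51% without VO 1. For the 21 other complement genes the number was 0 as reported, 1 with TPM, 2 with quantile normalization, and 0 to 5 with a library left out, most without VO 2. In either direction the share of all tested genes was 12% as reported, 12.4% with TPM, 10.7% with quantile normalization and 15.8% without VO 2. With no filter, 46 of the listed genes were tested and 1 had such a p-value, Cr2, which is not among the 21. The share of all genes was then 7.72%. Without sham 2 and VO 3 together, chosen after the data were seen, 1 of the 9 and 1 of the others had such a p-value. Of all tested genes, 2.22% were then higher and 7.12% were past the threshold in either direction. C1q relative to Adgre1 alone in place of 12 markers differed by -0.79 between VO and sham, against -0.30.

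Over all tested genes, 491 were higher and 1020 lower at an unadjusted p-value under 0.05. The higher count was 840 with no filter and 1085 with TPM, from 281 to 784 with a library left out, and 280 without sham 2 and VO 3. The lower count was 486 with TPM, from 574 to 1214 with a library left out, and 619 without sham 2 and VO 3. The number with an adjusted p under 0.05 was 1 as reported, 2 with a pseudocount of 1, 3 with a mean of at least 0.1 FPKM, and 0 with quantile normalization, with any library left out, and without sham 2 and VO 3.

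Same-numbered libraries were not treated as pairs, since their deviations from the group means correlated at -0.11, 0.01 and -0.03. With the replicate block, 3 of the 9 genes and 1 of the others had an unadjusted p-value under 0.05 by limma. Over all genes 324 (2.57%) were higher, 608 lower and 0 passed adjustment.

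Depth was not the limit for the 9 genes, which had at least 90 fragments in every library. It limits Hc, C6, C8a, C8b and C9 of the terminal pathway, which had few or none.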
